A study of Mus musculus with 6 samples.

Results

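RNA-seq libraries of mouse spinal cord, coded NG and IG by the submitters, were compared over 16326 of the 35275 genes in the deposited table, 46.3% of them. These are the genes whose mean over both groups was at least 10 normalised reads, the authors' unit, and they held 99.9% of the reads of every library. NG is labelled as neurons injured mechanically and IG as the control, which received no treatment. Both groups carry the same other labels: ICR stock, postnatal day 3, spinal cord as the tissue, neuron as the source, and culture in DMEM, a common medium. The series also holds TG, labelled as injured and then kept in 75% hydrogen. Its libraries serve here only to scale the reads, to set which genes are tested and to estimate the spread. Each group has 2 libraries. The labels do not state whether these came from different cultures or animals, so the p-values below cover the spread between libraries and that spread may be technical. A difference is NG minus IG on the log2 scale of normalised reads plus 1, with its standard error (SE), and a gene was called at a limma Benjamini-Hochberg adjusted p under 0.05.

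Mechanical damage to neurons is known to let calcium in and to start kinase signalling that switches on early response genes within minutes. Genes for chemokines, chaperones and axon regrowth follow, and glia and blood-borne cells react to them. The spinal cord holds neurons, oligodendrocytes that make myelin, astrocytes, microglia, ciliated cells that line the central canal, and vessels with a tight barrier. The column around it holds bone, marrow, cartilage, muscle and fat.

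The libraries held 15749447 to 23516544 reads assigned to genes, with 20627 to 21267 genes having a read. Across the 16326 genes, Pearson's r on the log2 scale was 0.991 between the IG libraries, 0.987 between the NG libraries and 0.885 to 0.892 between the groups, a description across genes, which are not independent replicates. Within each group, A names the library with more reads and B the other. Library NG B stood apart from NG A in genes of steroid synthesis. Cyp11a1, which starts steroid synthesis from cholesterol, stood at 2.32 and 5.80 normalised reads in IG and 21.4 and 792 in NG. Hsd3b1, a later enzyme, stood at 7.74 and 5.80 in IG and 1.94 and 252 in NG, and Star, the cholesterol carrier of steroid cells, at 60.4 and 51.0 in IG and 47.6 and 333 in NG. Akr1c18, whose enzyme breaks down progesterone, stood at 4.65 and 2.32 in IG and 27.2 and 457 in NG. The last 3 were chosen after their values were seen. All 4 were far higher in NG B than in any other library. Cyp11a1 was called (log2 fold change 4.81, SE 1.34, adjusted p = 0.021), with 2.25 and an adjusted p of 0.10 without NG B and 7.38 and 0.012 without NG A. Its adjusted p ran from 0.012 to 0.31 in the fits that left out 1 library of IG or NG or used only these 4 libraries. Over all genes of the comparison, 31 differed at least 4-fold between NG A and NG B, 24 of them higher in NG B, and 18 between IG A and IG B.

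The libraries held transcripts of neurons, the labelled cell type, and of many other cells. In reads per 1000000 assigned reads (RPM), 14 genes that mark neurons of every kind took 5353 and 5339.6 RPM in IG and 2929 and 2918 in NG. Myelin genes took 10.5% and 10.7% of reads in IG and 6.22% and 6.53% in NG. The haemoglobin gene Hba-a1 stood at 175904 and 209296 normalised reads in IG and 166764 and 188941 in NG, the muscle actin gene Acta1 at 4007 and 4399 in IG and 36951 and 41951 in NG, and the bone sialoprotein gene Ibsp at 28.6 and 22.0 in IG and 154 and 165 in NG. These transcripts are not those of cultured neurons alone, and the groups are therefore named by their codes. In bulk RNA, fewer cells of a type and less RNA per cell cannot be told apart.

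Genes whose form changes with age were compared per kilobase of exon. In newborn mice the liver expresses Afp, an albumin relative. Alb stood at 5199.7 and 4844 normalised reads per kilobase in IG and 16.2 and 13.4 in NG, and Afp at 1.15 and 0.344 in IG and 2.02 and 0.716 in NG. In muscle, the neonatal myosin Myh8 stood at 1.91 and 1.77 in IG and 1.73 and 1.02 in NG, and Myh4, a fast myosin that dominates in grown muscle, at 138 and 118 in IG and 498 and 469.5 in NG. Myh4 was above Myh8 in all 4 libraries, and Alb was above Afp in all 4. Xist, which only female cells express, stood at 176 and 175 normalised reads in IG and 526 and 431 in NG, and Ddx3y on the Y chromosome at 1856 and 1535 in IG and 1744 and 1462 in NG, and both transcripts were present in every library. Xist was higher in NG (log2 fold change 1.44, SE 0.13, adjusted p = 5.1e-05), and Ddx3y did not pass the test (-0.08, adjusted p = 0.65). Apart from Alb, these genes were chosen after their values were seen.

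Of the 16326 genes, 9028 were called, 55.3%, with 4344 higher in NG (26.6%) and 4684 lower (28.7%). Over all 24511 genes tested, 9818 were called, 40.1%, with 19.7% higher and 20.4% lower, and the median difference was 0.00. The counts of called genes in each list below are to be read beside these shares. The libraries of NG and IG did not overlap for 12786 of the 16326 genes, and any lack of overlap below is to be read beside that count. Without IG A the calls over all genes numbered 6252 (2949 higher, 3303 lower), and without IG B 6316 (2886 higher). Among the 16326 genes they numbered 5411 and 5400. Each such fit has fewer residual degrees of freedom. In the authors' deposited table, 7177 of the 16326 genes have an adjusted p under 0.05, and 7151 of these were also called here, every one in the same direction.

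Large differences lay on both sides. At least 2-fold calls numbered 2058 higher in NG and 1622 lower, at least 4-fold calls 555 and 332, at least 16-fold calls 69 and 138, and at least 64-fold calls 10 and 45. Differences of 2-fold or 4-fold were thus more often higher in NG, and those of 16-fold or more were more often lower. Reads redistributed between genes amounted to 24.9% of all reads between the groups, against 4.60% between the IG libraries and 6.48% between the NG libraries. A gene was well determined as little changed where its 95% interval lay inside -0.5 to 0.5, which held for 3540 of the 16326 genes (2230 without IG A, 2133 without IG B), 313 of them called as small differences. For 4071 genes neither a call nor such an interval was reached, so their difference was not resolved by these libraries. Of the 152 genes with a mean of 10 to 11 normalised reads, just inside the limit, 44 were called, and of the 178 just outside it, at 9 to 10, 62 were.

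**Figure D1:**
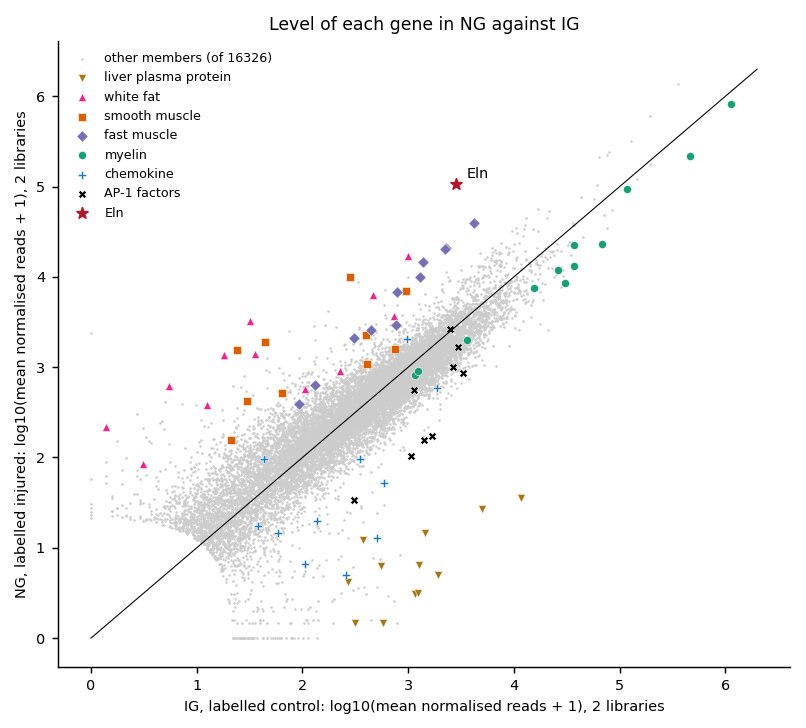
Mean normalised reads of each of the 16326 genes in IG (x axis) and NG (y axis), both as log10 of the mean of 2 libraries plus 1, with 7 gene lists and Eln in colour and the line of equal levels. Liver plasma protein genes lie far below the line, fat and smooth muscle genes and Eln above it, and most chemokine and AP-1 genes below it.

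Ranked by RPM, the largest rises were mitochondrial: mt-Co1, a subunit of cytochrome oxidase, stood at 379465 and 334012 normalised reads in IG and 1490759 and 1247774 in NG (log2 fold change 1.94, SE 0.19, adjusted p = 9.2e-05). The other rises among the first 10 were mt-Cytb, mt-Nd1, mt-Nd4, mt-Nd5, mt-Nd2, mt-Nd6, Eln, Eef1a1 and Acta1. Eln, which encodes the elastic fibre protein of arteries, ligaments and meninges, lies on chromosome 5, 134702593 to 134747323 of mm10. It stood at 2461 and 3145 normalised reads in IG and 87449 and 128022 in NG (log2 fold change 5.25, SE 0.18, adjusted p = 8.5e-07), and its share of all reads was 0.0135% and 0.0172% in IG and 0.448% and 0.667% in NG. Each NG library was far above each IG library. The 10 genes with the largest deficit in NG by RPM included Mbp and Cnp, both of myelin, and also held Scd2, Hbb-bs, Mobp, Gfap, Cldn11 and Hba-a1. Mbp, Hbb-bs, Mobp and Hba-a1 of these did not pass the test. Among protein-coding genes with at least 20 reads in every library, the largest log2 rises were those of Cfd, Myh11, Adipoq, Eln and Acta2, and the largest falls those of Alb, Ahsg, Hspa1a, Nr4a3 and Kcnk9. Kcnk9, a potassium leak channel of neurons, stood at 264 and 300.5 in IG and 20.4 and 26.5 in NG (log2 fold change -3.54, SE 0.17, adjusted p = 3.3e-06). Without 1 library, the calls of Eef1a1 (without IG B; highest adjusted p = 0.06) and Gfap (without IG B; highest adjusted p = 0.056) were lost.

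Neuronal transcripts were lower in NG. Of 14 genes that mark neurons of every kind, 13 fell (7 without IG A) and none rose, with a median of -0.86. Syt1, the calcium sensor of vesicle release, stood at 1313 and 1263 normalised reads in IG and 556 and 442 in NG (log2 fold change -1.38, SE 0.12, adjusted p = 3.9e-05). Map2, a microtubule protein of dendrites, stood at 8393 and 7460.4 in IG and 3417 and 2803 in NG (log2 fold change -1.35, SE 0.11, adjusted p = 3.5e-05). Both lay lower in each NG library than in either IG library, by about the same factor. Syp, a synaptic vesicle protein, had -1.26 (SE 0.07) and Nefm, a neurofilament, -1.11 (SE 0.07).

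Channels and receptors that set neuronal excitability moved together with them. All 12 voltage-gated and other potassium channel genes of the list fell, with a median of -1.19. Kcnq3, a subunit of the M current that limits repeated firing, stood at 666 and 599 in IG and 229 and 166 in NG (log2 fold change -1.69, SE 0.15, adjusted p = 5.1e-05). Kcnc1, which allows fast firing, had -1.55 (SE 0.17), and Kcnj10, the glial potassium channel with the highest level on the list, -0.57 (SE 0.07). All 12 genes for glycine and GABA-A receptor subunits fell (7 without IG A, IG B or NG B), with a median of -1.23. Gabrb2 stood at 241 and 191 in IG and 31.1 and 36.2 in NG (log2 fold change -2.64, SE 0.18, adjusted p = 1.4e-05). Glrb, the glycine receptor subunit bound to the synaptic scaffold, had -1.25 (SE 0.12), and Glra3 -1.92 (SE 0.45). The call of Glra3 (in all but that without NG A; highest adjusted p = 0.19) was lost without 1 library.

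Neuron classes did not move as a block. Of 12 transcription factor genes of spinal interneurons, 5 fell (2 without IG A, IG B, NG A, TG A or TG B), Tlx3 rose (1.00, SE 0.29) and 6 did not pass, with a median of -0.64. Tfap2b, a factor of inhibitory dorsal neurons, had -1.55 (SE 0.22). Of 8 motor and cholinergic genes, 4 fell and 4 did not pass, with a median of -0.56. Slc5a7, the choline transporter, had -1.84 (SE 0.17) and Chat, which makes acetylcholine, -1.16 (SE 0.14), while the intermediate filament gene Prph stood at 1322 and 1413 in IG and 1318 and 1363 in NG (-0.03, adjusted p = 0.88). Of 11 genes of sensory neurons, whose cell bodies lie in the dorsal root ganglia outside the cord, none fell and 6 rose (2 without IG A, NG A or NG B and 3 without IG B), with a median of 0.84. Runx3, which specifies muscle sense neurons and is also used by lymphocytes, stood at 13.2 and 31.3 in IG and 80.7 and 124 in NG (log2 fold change 2.24, SE 0.45, adjusted p = 0.0045). Prdm12, needed for pain neurons, stood at 29.4 and 29.0 in IG and 81.6 and 89.2 in NG (log2 fold change 1.51, SE 0.34, adjusted p = 0.0079), and Scn10a, their sodium channel, at 114 and 116 in IG and 256 and 261 in NG (log2 fold change 1.16, SE 0.20, adjusted p = 0.0017). The pain peptide gene Calca did not pass (-0.14, adjusted p = 0.37). Of 12 neuropeptide genes, 8 did not pass, 3 rose (1 without NG B) and 1 fell, with a median of 0.27. Grp, the gastrin-releasing peptide of itch circuits, had 1.46 (SE 0.21), Cck 0.66 (SE 0.14) and Penk, the enkephalin precursor, -0.59 (SE 0.08). Sst, the highest of them, had 0.22 (adjusted p = 0.057). Calls lost without 1 library were those of Tlx3 (in all 6; highest adjusted p = 0.31), Runx3 (in all but that without IG B; highest adjusted p = 0.15), Prdm12 (in all but those without TG A and TG B; highest adjusted p = 0.09) and Cck (without IG A, IG B and NG B; highest adjusted p = 0.097).

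**Figure D2:**
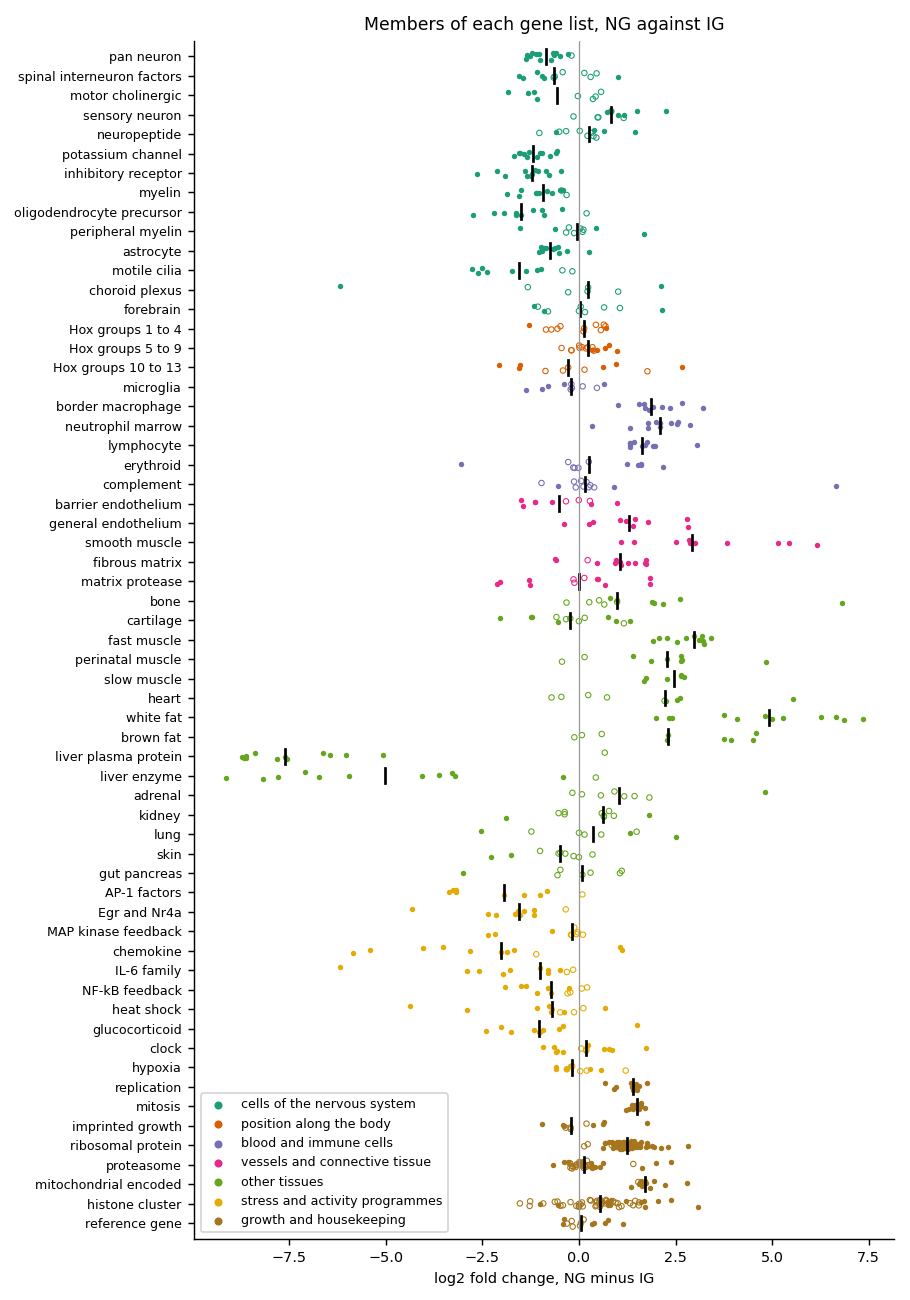
Log2 difference, NG minus IG, of each tested member of each gene list, 1 row a list and 1 colour a block of lists, with filled points for called genes, open points for genes that did not pass and a black bar at the median of the list. Liver, chemokine, channel, receptor and myelin lists lie left of 0 and fat, muscle, smooth muscle, macrophage and cell cycle lists right of it.

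Of 12 myelin genes of oligodendrocytes, 10 fell and none rose, with a median of -0.94. Mag, an adhesion protein of the innermost myelin layer, stood at 29458 and 31863 in IG and 7839 and 9094 in NG (log2 fold change -1.86, SE 0.10, adjusted p = 4.9e-06). Cnp, a cytoplasmic myelin enzyme, stood at 67602 and 69516 in IG and 22664 and 23988 in NG (log2 fold change -1.56, SE 0.09, adjusted p = 7.4e-06) and Cldn11, the tight junction protein of the sheath, had -1.50 (SE 0.08). Mbp, the highest of the list, stood at 1099322 and 1171731 in IG and 795628 and 863979.9 in NG and did not pass (-0.45, adjusted p = 0.13). Genes of the steps before myelin had a lower median. Of 11 genes of oligodendrocyte precursors and of cells about to make myelin, 10 fell, with a median of -1.50. Fewer of them were called lower in every fit that left out 1 library, with medians from -1.52 to -1.13. Gpr17 stood at 6861 and 6633 in IG and 1057 and 977 in NG (log2 fold change -2.73, SE 0.08, adjusted p = 2.8e-07), Enpp6 at 2498 and 2266 in IG and 547 and 488 in NG (log2 fold change -2.20, SE 0.09, adjusted p = 1.7e-06), and Neu4 had -1.94 (SE 0.11). Gpr17 and Enpp6 mark cells that are committed to the lineage and have not yet wrapped axons. Bcas1 had -0.45 (SE 0.08).

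Myelin of peripheral nerve, made by Schwann cells, showed no common direction. Of its 10 genes, 2 rose (1 without IG B or NG A), 2 fell and 6 did not pass, with a median of -0.04. Pmp2, a fatty acid carrier of Schwann cells, stood at 2188 and 2039 in IG and 6988 and 6479.5 in NG (log2 fold change 1.67, SE 0.08, adjusted p = 2.8e-06). Egr2, which drives the Schwann cell programme and is also an early response gene, had -1.53 (SE 0.11).

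Of 12 astrocyte genes, 11 fell (6 without IG B) and S100b rose (0.27, SE 0.07), with a median of -0.76. Slc7a10, an amino acid exchanger of astrocytes, stood at 996 and 1213 in IG and 489.8 and 583 in NG (log2 fold change -1.04, SE 0.13, adjusted p = 2.9e-04). Slc1a3, a glutamate transporter, had -0.99 (SE 0.10) and Fgfr3 -0.96 (SE 0.11). Gfap, the filament gene of reactive astrocytes and the highest of the list, stood at 70036 and 73737 in IG and 47358 and 50535 in NG (log2 fold change -0.55, SE 0.10, adjusted p = 0.0023). Of 10 genes of motile cilia, which cells that line the canal carry, 8 fell, with a median of -1.55. Fewer of them were called without IG A, IG B, TG A or TG B. The source cells of these transcripts were not tested. Hydin, of the central pair of the cilium, stood at 55.0 and 44.1 in IG and 10.7 and 3.62 in NG (log2 fold change -2.77, SE 0.43, adjusted p = 0.001) and the axonemal dynein genes Dnah11 and Dnah9 had -2.61 (SE 0.35) and -2.52 (SE 0.23). Foxj1, the factor that switches cilia genes on, had -1.37 (SE 0.21). The list holds long genes, and exon length is treated at the end. Without 1 library, S100b (without IG A and IG B; highest adjusted p = 0.076), Gfap (without IG B; highest adjusted p = 0.056), Hydin (without IG A, IG B and TG B; highest adjusted p = 0.077) and Foxj1 (without IG A, IG B and TG B; highest adjusted p = 0.092) lost their calls.

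Choroid plexus and forebrain markers checked for tissue from the brain. Of 7 choroid plexus genes, 5 did not pass. Ttr, the thyroxine carrier of both choroid plexus and liver, stood at 576 and 513 in IG and 5.83 and 7.23 in NG (log2 fold change -6.18, SE 0.38, adjusted p = 9.2e-06), and Aqp1, a water channel also found in vessels and red cells, at 848 and 882 in IG and 3761 and 3774 in NG (log2 fold change 2.12, SE 0.07, adjusted p = 8.5e-07). Of 10 forebrain factors, 7 did not pass, 1 rose and 2 fell (1 without IG A or NG A and 0 without IG B, NG B, TG A or TG B), and their sum was 6.93 and 7.37 RPM in IG and 3.84 and 4.02 in NG. Emx2 had 2 reads in IG and 13 in NG (7.53-fold, counting interval 1.71 to 68.7), and Neurod2 stood at 58.8 and 78.9 in IG and 33.0 and 39.8 in NG. Leaving out 1 library ended the calls of Emx2 (in all but that without IG B; highest adjusted p = 0.21) and Neurod2 (in all but that without IG A; highest adjusted p = 0.098).

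Hox genes keep the position of cells along the body axis, with higher paralog numbers expressed further toward the tail. Of 15 genes of groups 5 to 9, 10 did not pass, none fell and 5 rose (1 without IG A, IG B or NG B and 2 without TG A or TG B), with a median of 0.22. Over the 16326 genes, 26.6% were called higher and 28.7% lower. Hoxb8, the highest gene of groups 5 to 9, stood at 1827 and 1934 in IG and 1865 and 1932 in NG (log2 fold change 0.01, SE 0.07, adjusted p = 0.93). Of 12 genes of groups 1 to 4, which reach up to the hindbrain, 10 did not pass, and Hoxb4 had 0.71 (SE 0.15) and Hoxd3 -1.29 (SE 0.44). Of 11 genes of groups 10 to 13, which mark lumbar and sacral levels, 3 rose, 3 fell (1 without IG A) and 5 did not pass, with a median of -0.28. Without 1 library, Hoxb4 (without NG A, NG B and TG B; highest adjusted p = 0.079) and Hoxd3 (in all 6; highest adjusted p = 0.26) lost the call.

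Group 10 genes differed between the clusters. Hoxd10, used by lumbar motor neurons, stood at 65.0 and 54.5 in IG and 16.5 and 10.8 in NG (log2 fold change -2.07, SE 0.27, adjusted p = 4.0e-04), and Hoxd11 at 16.3 and 16.2 in IG and 3.89 and 6.03 in NG (log2 fold change -1.56, SE 0.37, adjusted p = 0.0098). In contrast Hoxa10 stood at 126 and 118 in IG and 235 and 242 in NG (log2 fold change 0.96, SE 0.11, adjusted p = 2.5e-04) and Hoxc10 at 153 and 169 in IG and 249.8 and 246 in NG (log2 fold change 0.62, SE 0.11, adjusted p = 0.0025). Paralogs of group 10 were thus lower in NG in the Hoxd cluster and higher in the Hoxa and Hoxc clusters. The libraries of the groups did not overlap in any of the 3 genes, as was the case for 12786 of the 16326 genes. Hoxa11 had -1.53 (SE 0.38), and Hoxc13 had no read in IG and 10 in NG. Hox genes are also used by fibroblasts, bone and muscle, and their source cells were not tested. Among these genes the calls lost without 1 library were those of Hoxd11 (without IG A and IG B; highest adjusted p = 0.064) and Hoxa11 (without IG A, IG B and NG B; highest adjusted p = 0.069).

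**Figure D3:**
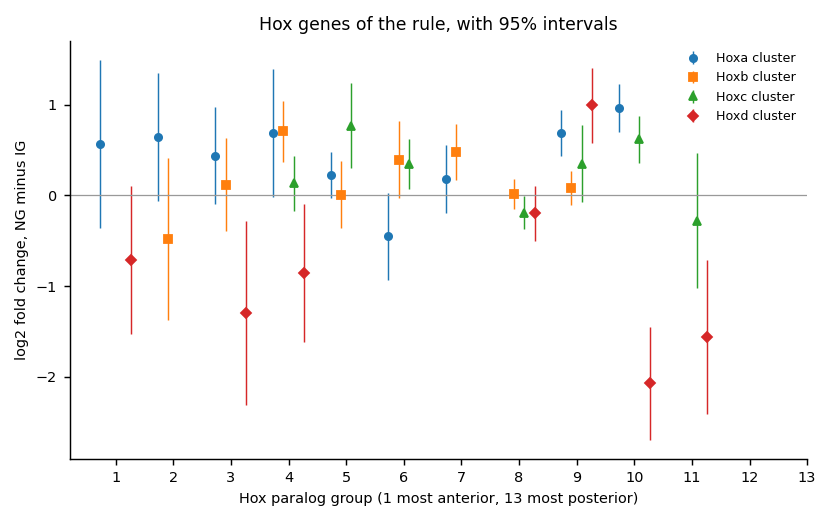
Log2 difference, NG minus IG, of each Hox gene among the 16326, by paralog group from 1 (toward the head) to 13 (toward the tail), with 95% intervals and 1 symbol a cluster. Most genes of groups 4 to 9 lie near 0, while Hoxd10 at -2.07 and Hoxd11 at -1.56 lie below it and Hoxa10 at 0.96 above it.

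Early response genes were lower in NG, which is labelled injured. Of 9 AP-1 genes, whose proteins pair as Fos, Jun and Atf or Maf partners, 8 fell and none rose, with a median of -1.93. Fosl1, a later Fos family member, stood at 280.3 and 336 in IG and 33.0 and 32.5 in NG (log2 fold change -3.19, SE 0.17, adjusted p = 5.4e-06), and Maff, a small Maf partner, at 1309 and 1501 in IG and 138 and 172 in NG (log2 fold change -3.18, SE 0.13, adjusted p = 1.5e-06). Jun had -0.82 (SE 0.11) and Jund, which most cells express at rest, 0.09 (adjusted p = 0.84). Of 11 genes of the Egr and Nr4a families and related activity genes, 10 fell, with a median of -1.56. Nr4a3, an orphan nuclear receptor induced by calcium and cAMP, stood at 608 and 579 in IG and 28.2 and 28.9 in NG (log2 fold change -4.33, SE 0.12, adjusted p = 2.8e-07). Egr3 had -2.14 (SE 0.20), Egr1 -1.42 (SE 0.08) and the synaptic gene Arc -1.66 (SE 0.14). Npas4, a gene switched on by depolarisation of neurons, stood at 40.3 and 37.1 in IG and 10.7 and 14.5 in NG (log2 fold change -1.56, SE 0.28, adjusted p = 0.0024). Induced genes that act back on MAP kinase signalling moved less as a group, with 3 of 9 lower, 6 that did not pass and a median of -0.19. Over the 16326 genes, 28.7% were called lower. Errfi1, which blocks the EGF receptor, had -2.35 (SE 0.07) and Dusp5, a nuclear ERK phosphatase, -2.17 (SE 0.13), while Dusp6 had -0.06 (adjusted p = 0.65) and Spry4 -0.03 (adjusted p = 0.92). The direction was thus the same for most early response genes, and the feedback genes Dusp6, Spry1, Spry2 and Spry4 did not pass.

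Chemokine and cytokine genes held the largest single falls among the stress lists. Of 11 chemokine genes, 8 fell, 2 rose and 1 did not pass, with a median of -2.02. Cxcl2, which draws neutrophils, stood at 255 and 263 in IG and 1.94 and 6.03 in NG (log2 fold change -5.84, SE 0.36, adjusted p = 9.2e-06). Ccl4, which draws monocytes and T cells, stood at 103 and 104 in IG and 7.77 and 3.62 in NG (log2 fold change -4.04, SE 0.32, adjusted p = 3.0e-05), and Cxcl10, an interferon-induced chemokine, had -2.02 (SE 0.28). The genes that rose were Cxcl12, a constitutive chemokine of stroma and meninges, at 965 and 997 in IG and 2092 and 1984 in NG (log2 fold change 1.05, SE 0.08, adjusted p = 2.1e-05), and Ccl12 with 1.13 (SE 0.20). Of 11 genes of the IL-6 family and its signalling, none rose and 9 fell, with a median of -1.02. By role, the ligand genes Il6, Lif and Il11 had -6.19 (SE 0.23), -2.58 (SE 0.19) and -1.96 (SE 0.34). The receptor genes Osmr and Il6st had -1.77 (SE 0.15) and -0.48 (SE 0.07), while Il6ra and Lifr did not pass (-0.31, adjusted p = 0.14 and -0.15, adjusted p = 0.46). The induced inhibitor gene Socs3 stood at 1695 and 2176 in IG and 227 and 295 in NG (log2 fold change -2.88, SE 0.16, adjusted p = 5.7e-06). Il6 and Socs3 had the values furthest from 0 in this list, and Il6st, Il6ra and Lifr those nearest to it. Of 11 NF-kB components and feedback targets, 7 fell (4 without IG A, NG A, TG A or TG B and 3 without IG B) and 4 did not pass, with a median of -0.72. Nfkbiz, an inducible cofactor, had -1.92 (SE 0.10), Tnfaip3, a deubiquitinase that ends the signal, -1.36 (SE 0.14) and the adhesion gene Icam1 -1.49 (SE 0.11), while Rela itself had -0.22 (adjusted p = 0.17).

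Among chaperone genes the inducible Hsp70 genes had the lowest values. Hspa1a, the inducible Hsp70, stood at 444 and 577 in IG and 20.4 and 26.5 in NG (log2 fold change -4.38, SE 0.19, adjusted p = 2.4e-06), and its near-identical neighbour Hspa1b, with which reads may be shared, had -2.91 (SE 0.18). Hspa8, the constitutive Hsp70, had -0.71 (SE 0.09) and Hsp90ab1 -0.38 (SE 0.08), while the mitochondrial cochaperone gene Hspe1 rose by 0.66 (SE 0.08). Of the 11 heat shock genes 7 fell, 1 rose and 3 did not pass, with a median of -0.71. Of 10 genes that glucocorticoids switch on, 9 fell and 1 rose, with a median of -1.03. Mt2, a metal-binding protein, stood at 9312 and 8747 in IG and 1747 and 1689 in NG (log2 fold change -2.39, SE 0.07, adjusted p = 3.7e-07), Cebpd had -2.03 (SE 0.15) and Sgk1 -1.76 (SE 0.07). Fkbp5, a feedback gene of the glucocorticoid receptor, had -1.01 (SE 0.08), and Pdk4, the gene that rose, which is also a fat and muscle gene, 1.51 (SE 0.10). Circadian genes split, with 5 higher (3 without IG A, IG B or NG B and 2 without TG A or TG B) and 5 lower (2 without IG A, 1 without IG B and 3 without TG A or TG B) of 13 and a median of 0.19. Dbp, a clock output that peaks by day in mice, had 1.74 (SE 0.27), Nr1d1 0.86 (SE 0.10), Per1, which is also an early response gene, -0.94 (SE 0.12) and Arntl, of the opposite phase, -0.64 (SE 0.15). Sampling times are not given in the labels. Of 11 hypoxia genes, 4 fell (2 without IG A or IG B), 2 rose (1 without IG A, NG A, TG A or TG B and 0 without IG B) and 5 did not pass, with a median of -0.17, Vegfa at 0.03 (adjusted p = 0.89) and Hk2 at 0.56 (SE 0.11). Calls lost without 1 library were those of Dbp (in all but those without IG B and NG A; highest adjusted p = 0.088), Arntl (in all but those without NG A and NG B; highest adjusted p = 0.13) and Hk2 (without IG B; highest adjusted p = 0.052).

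Promoters of 5 of these genes are shown, each with the largest called fall of its list among genes with a promoter sequence. Transcripts of all 5 fell by more than 3 on the log2 scale. Their promoters hold motifs of known stress-responsive factors within the 250 bases before the start. The 5 lists were chosen with earlier results of these data known. The sequences run from 250 bases before to 50 after the RefSeq start on GRCm38.p6, 5′ to 3′ on the strand of the gene, with 1 kind of motif in capitals in each. In Atf3 and Nr4a3 the capitals mark TGACGT or its reverse complement, the shorter cAMP response motif, at -8 in Atf3 and at -231, -205 and -147 in Nr4a3. In Cxcl2 they mark overlapping matches of the NF-kB site from -97 and -96, and in Il6 a match from -44. In Hspa1a they mark a unit of the heat shock element, GAANNTTC, from -104. Matches of other motifs stay in lower case: in Il6 the reverse complement of TGACGT at -136 and that of the AP-1 site at -249, and in Hspa1a the NF-kB site from -133.
Atf3, chr1:191183284-191183583, minus strand: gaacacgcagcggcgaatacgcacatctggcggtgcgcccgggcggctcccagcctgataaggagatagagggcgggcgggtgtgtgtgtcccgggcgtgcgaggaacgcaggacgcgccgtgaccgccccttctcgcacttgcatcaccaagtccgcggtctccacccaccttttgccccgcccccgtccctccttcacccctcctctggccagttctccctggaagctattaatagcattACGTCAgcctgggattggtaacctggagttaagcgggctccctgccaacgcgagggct
Nr4a3, chr4:48045055-48045354, plus strand: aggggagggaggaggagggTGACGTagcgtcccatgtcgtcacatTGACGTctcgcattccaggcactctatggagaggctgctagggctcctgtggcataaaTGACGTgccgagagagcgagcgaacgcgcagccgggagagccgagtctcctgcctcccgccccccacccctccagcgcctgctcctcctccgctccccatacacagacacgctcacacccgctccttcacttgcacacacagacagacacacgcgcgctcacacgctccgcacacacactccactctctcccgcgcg
Cxcl2, chr5:90903649-90903948, plus strand: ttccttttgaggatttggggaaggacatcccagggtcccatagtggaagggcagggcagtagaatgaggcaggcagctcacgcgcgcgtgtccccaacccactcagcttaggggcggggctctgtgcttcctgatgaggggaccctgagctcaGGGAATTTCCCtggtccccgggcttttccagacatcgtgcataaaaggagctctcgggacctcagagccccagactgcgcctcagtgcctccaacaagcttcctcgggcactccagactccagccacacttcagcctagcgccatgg
Il6, chr5:30012864-30013163, plus strand: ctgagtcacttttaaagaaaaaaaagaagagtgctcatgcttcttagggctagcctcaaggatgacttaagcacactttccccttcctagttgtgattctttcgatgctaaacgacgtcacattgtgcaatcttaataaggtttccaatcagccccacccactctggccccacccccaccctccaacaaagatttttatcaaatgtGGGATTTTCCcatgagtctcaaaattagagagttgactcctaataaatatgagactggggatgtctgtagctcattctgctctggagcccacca
Hspa1a, chr17:34972107-34972406, minus strand: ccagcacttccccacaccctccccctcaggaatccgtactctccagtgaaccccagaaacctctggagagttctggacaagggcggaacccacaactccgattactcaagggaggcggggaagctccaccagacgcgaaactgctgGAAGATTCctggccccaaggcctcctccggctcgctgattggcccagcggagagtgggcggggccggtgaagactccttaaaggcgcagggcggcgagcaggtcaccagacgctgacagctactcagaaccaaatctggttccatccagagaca
The table holds such promoters for 27025 genes, and 12364 of the 16326 genes matched. Motifs were sought on both strands: TGACGTCA (1.88% of all 27025 promoters), TGACGT, which is part of it (7.64%), the AP-1 site TGACTCA (5.17%), GAANNTTC (7.95%), TATAAA (14.2%), the serum response element (1.57%) and the NF-kB site (8.18%). Among the 12364 promoters of the compared genes, the shares were 11.1% for TGACGT, 10.4% for the NF-kB site and 5.57% for GAANNTTC. GAANNTTC lay in 6 of the 8 heat shock promoters in the table, 75.0%. The NF-kB site lay in 5 of 8 promoters of the NF-kB list, 62.5%, in 5 of 7 of the Egr and Nr4a list, 71.4%, in 3 of 7 of the chemokine list, 42.9%, in 3 of 8 each of the AP-1 and heat shock lists, 37.5%, and in 2 of 9 of the IL-6 family list, 22.2%. Of the promoters of genes called lower by at least 4-fold, 10.5% held the NF-kB site, against 11.5% of those called higher by as much. TGACGT lay in 2 of 8 promoters of the AP-1 list, 25.0%, and in 3 of 7 of the Egr and Nr4a list, 42.9%. It lay in 6.85% of the promoters called lower by at least 4-fold and in 3.75% of those called higher. The AP-1 site and the serum response element lay in no promoter of the AP-1 list or of the Egr and Nr4a list. A match is a description of letters and shows no binding.

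Markers of smooth muscle rose, all 10 of 10, with a median of 2.93, and took 161 and 165 RPM in IG and 1349 and 1389.8 in NG. Acta2, the actin of vessel walls and myofibroblasts, stood at 290.3 and 271 in IG and 10222 and 9866 in NG (log2 fold change 5.16, SE 0.08, adjusted p = 2.5e-08). Myh11, the smooth muscle myosin, stood at 41.0 and 45.2 in IG and 1928 and 1874 in NG (log2 fold change 5.43, SE 0.17, adjusted p = 4.6e-07), and the contractile regulator gene Cnn1 at 13.2 and 32.5 in IG and 1401 and 1699 in NG (log2 fold change 6.15, SE 0.35, adjusted p = 6.8e-06). Both NG libraries were far above both IG libraries for each of the 3. Endothelial markers moved by vessel type. Of 10 general endothelial genes, 9 rose and Flt1 fell (-0.40, SE 0.09), led by Cd36 with 2.81 (SE 0.17) and Gpihbp1 with 2.80 (SE 0.21), both of capillaries in fat and muscle, and Pecam1 had 1.79 (SE 0.09). Their median was 1.30, against -0.52 for the 10 genes of barrier endothelium. Of the latter, 5 fell, Lef1 and Itm2a rose (0.99, SE 0.14 and 0.31, SE 0.09) and 3 did not pass. Mfsd2a, a lipid transporter of the blood-brain barrier, stood at 1381 and 1428 in IG and 469 and 523 in NG (log2 fold change -1.50, SE 0.09, adjusted p = 8.4e-06), and the efflux pump gene Abcb1a had -1.13 (SE 0.11). Spock2 had -1.44 (SE 0.07). Calls lost without 1 library were those of Flt1 (without IG A and IG B; highest adjusted p = 0.069) and Itm2a (in all 6; highest adjusted p = 0.17).

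Of 13 genes of fibrous matrix, 10 rose, Col12a1 and Fn1 fell (-0.58, SE 0.09 and -0.61, SE 0.08) and 1 did not pass, with a median of 1.05. Col1a1, of type I collagen, stood at 9745 and 11088 in IG and 32078 and 37671 in NG (log2 fold change 1.74, SE 0.10, adjusted p = 7.3e-06), Lum had 1.72 (SE 0.12) and Col3a1 1.44 (SE 0.08). Matrix proteases and their inhibitors split, with 5 higher (3 without IG A or NG B) and 4 lower of 12 and a median of 0.01 (-0.06 when scaled by total reads). Timp1, an inhibitor induced by injury and cytokines, stood at 691 and 664 in IG and 155 in both libraries of NG (log2 fold change -2.12, SE 0.13, adjusted p = 8.3e-06), and Adamts4, which cuts aggrecan, had -2.03 (SE 0.13), while Mmp13, a collagenase of bone and cartilage, had 1.84 (SE 0.22). Of 12 bone genes none fell and 7 rose (4 without IG B and 3 without NG B), with a median of 0.98. Sost, which osteocytes secrete, stood at 2.32 and 1.16 in IG and 305 and 295 in NG (log2 fold change 6.81, SE 0.36, adjusted p = 4.9e-06), Ibsp had 2.62 (SE 0.31) and Spp1 0.81 (SE 0.10), and Bglap, which has a near-identical neighbour, had 2.16 (SE 0.28). Of 13 cartilage genes, 3 rose (1 without IG A, IG B or NG B), 4 fell (1 without IG A, IG B, TG A or TG B and 2 without NG A) and 6 did not pass, with a median of -0.22. Col9a3 had -2.03 (SE 0.15), Chad 1.31 (SE 0.22) and Col11a2 -1.23 (SE 0.20). Calls lost without 1 library were those of Bglap (without NG B; highest adjusted p = 0.052), Chad (without IG A, IG B and NG B; highest adjusted p = 0.065) and Col11a2 (in all but that without NG B; highest adjusted p = 0.11).

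Skeletal muscle genes rose in every fibre class. All 11 tested genes of fast fibres rose, with a median of 2.97, and took 761 and 761 RPM in IG and 6094 and 6384 in NG. Mylpf, a fast myosin light chain, stood at 2273 and 2296 in IG and 20980.3 and 21019.7 in NG (log2 fold change 3.20, SE 0.08, adjusted p = 1.9e-07). All 6 slow fibre genes rose, among them Tnnt1 with 2.72 (SE 0.13) and Myl3 with 2.65 (SE 0.18), and 7 of 9 genes of developing muscle did, among them Actc1 at 25.5 and 16.2 in IG and 608 and 618 in NG (log2 fold change 4.84, SE 0.27, adjusted p = 5.9e-06) and Myog, a factor of muscle cell differentiation, with 2.66 (SE 0.28). The called genes of fast, slow and developing fibres were thus all higher in NG. Of 9 heart genes, 4 rose (2 without IG B, NG A or NG B) and 5 did not pass, with a median of 2.22. Myl7, an atrial light chain, stood at 3.87 and 1.16 in IG and 148 and 154 in NG (log2 fold change 5.55, SE 0.53, adjusted p = 7.4e-05), while the cardiac myosin gene Myh6 had -0.45 (adjusted p = 0.078). Actins share much sequence, and reads of Acta1, Acta2 and Actc1 may be divided among them by the authors' counting.

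All 12 white fat genes rose, with a median of 4.91. Adig, which fat cells need to form, stood at 5.42 and 3.48 in IG and 634 and 609.8 in NG (log2 fold change 6.86, SE 0.30, adjusted p = 2.4e-06) from 10 reads in IG, 134-fold, counting interval 72.7 to 281. Fabp4, the fatty acid carrier of fat cells and capillaries, stood at 1007 and 969 in IG and 17970.5 and 15791 in NG (log2 fold change 4.09, SE 0.08, adjusted p = 1.0e-07), and Adipoq, the fat hormone adiponectin, at 34.8 and 33.6 in IG and 1489 and 1277 in NG (log2 fold change 5.29, SE 0.26, adjusted p = 3.3e-06). Of 9 brown fat genes, 6 rose and 3 did not pass, with a median of 2.31. Ucp1, which releases heat in brown fat mitochondria, stood at 143 and 109 in IG and 3037 and 2734 in NG (log2 fold change 4.52, SE 0.14, adjusted p = 4.6e-07), Cox8b had 4.59 (SE 0.10) and Cidea 3.94 (SE 0.16). NG held far more of both fat programmes in each library.

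Liver transcripts had the lowest medians of the lists described here. Of 13 plasma protein genes, 12 fell, with a median of -7.61, and they took 1453 and 1376 RPM in IG and 6.33 and 5.34 in NG. Alb stood at 12178 and 11346 in IG and 37.9 and 31.3 in NG (log2 fold change -8.37, SE 0.19, adjusted p = 1.1e-07), lower in NG by 339-fold, counting interval 266 to 439. Ahsg, a liver glycoprotein, stood at 4969 and 4965 in IG and 27.2 and 24.1 in NG (log2 fold change -7.54, SE 0.22, adjusted p = 3.7e-07). Apob, the protein of very low density lipoproteins, had 1 read in NG against 1248 in IG, a ratio of 1077-fold, counting interval 193 to 42577, and Hpx stood at 1922 and 1883 in IG and 1.94 and 6.03 in NG. Of 12 liver enzyme genes, 11 fell, with a median of -5.01. Cps1, of the urea cycle, stood at 674 and 606 in IG and 3.89 and 0 in NG, a ratio of 300.3-fold, counting interval 117 to 1104, and Tat, which breaks down tyrosine, at 315 and 343 in IG and 0 and 1.21 in NG, a ratio of 607-fold, counting interval 109 to 23999. Both IG libraries held the liver transcripts named so far, and both NG libraries were far lower for them. Cyp2e1, which fat also expresses, did not pass, at 198 and 161 in IG and 257 and 229 in NG (0.44, adjusted p = 0.28). Counting intervals here and elsewhere cover counting error only.

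**Figure D4:**
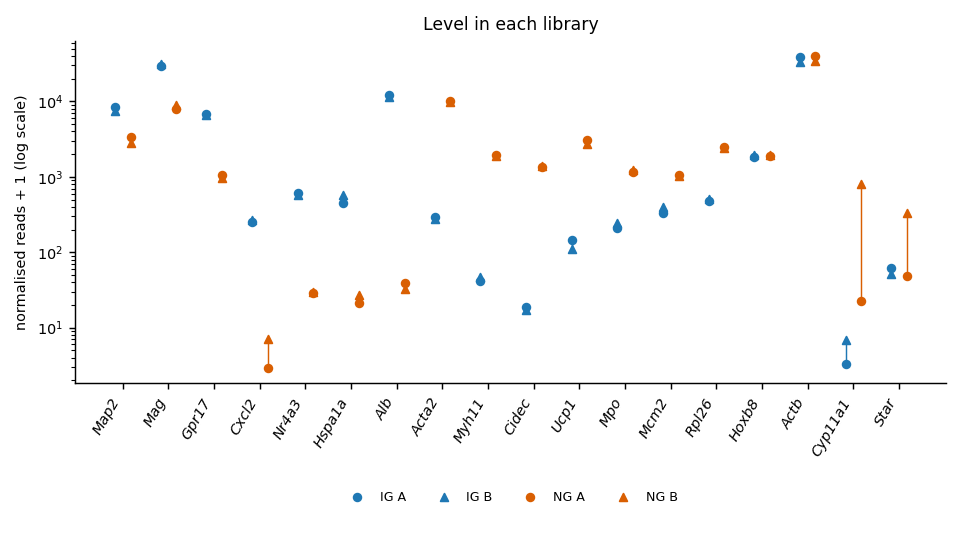
Normalised reads plus 1 on a log scale in the 4 libraries for 18 genes, IG in blue and NG in orange, circles for library A and triangles for library B. Libraries of a group lie close together for most genes and far apart for Cyp11a1 and Star in NG, where only NG B is high.

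Other organs gave no common direction. Of 8 adrenal genes, 1 was called (4 without NG A, none in the other fits that left out a library), and their sum was 4.17 and 3.62 RPM in IG and 4.04 and 72.7 in NG, high in NG B only. Of 10 kidney genes, 8 did not pass and Lrp2 had -1.89 (SE 0.30). Of 8 lung genes, 5 did not pass, and Sftpc, the surfactant protein of alveoli, stood at 20.1 and 15.1 in IG and 1.94 and 2.41 in NG while Scgb1a1 had 1 read in IG and 13 in NG (15.1-fold, counting interval 2.26 to 640.1) and Napsa had 1.33 (SE 0.25). Of 9 skin genes, 7 did not pass, Krtdap had -2.27 (SE 0.40), and Krt5 had 5 reads in IG and none in NG. Of 7 genes of gut and pancreas, 6 did not pass and Fabp2, the intestinal fatty acid carrier, had 15 reads in IG and none in NG. Without 1 library, Scgb1a1 (without IG B and NG A; highest adjusted p = 0.084), Napsa (without IG A and NG B; highest adjusted p = 0.075), Krtdap (without IG A and IG B; highest adjusted p = 0.086) and Krt5 (in all but those without TG A and TG B; highest adjusted p = 0.13) lost the call.

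Blood and immune genes were mostly higher in NG, while microglia genes were not. Of 10 microglia genes, 4 fell (2 without IG A or NG B), Olfml3 rose (0.64, SE 0.12) and 5 did not pass, with a median of -0.20. Sall1, the factor that keeps microglia identity, had -1.37 (SE 0.08) and P2ry12, a receptor of resting microglia, -0.95 (SE 0.16), while Csf1r, shared with all macrophages, had -0.20 (adjusted p = 0.058). All 10 genes of macrophages at the borders of the nervous system rose, with a median of 1.88. F13a1, a transglutaminase of such macrophages and of platelets, stood at 311 and 287 in IG and 1639 and 1456 in NG (log2 fold change 2.37, SE 0.11, adjusted p = 2.6e-06), Cbr2 at 137 and 117 in IG and 1223 and 1135 in NG (log2 fold change 3.21, SE 0.14, adjusted p = 2.1e-06), and Clec10a had 2.66 (SE 0.18). All 11 genes of marrow neutrophils rose, with a median of 2.09. Elane, a protease that neutrophil precursors make in marrow, stood at 81.3 and 85.8 in IG and 605 and 641 in NG (log2 fold change 2.88, SE 0.18, adjusted p = 1.0e-05), Prtn3 and Ctsg, of the same stage, had 2.56 (SE 0.23) and 2.54 (SE 0.29), and S100a9, of mature cells too, 2.09 (SE 0.09). All 11 lymphocyte genes rose, with a median of 1.63, including Vpreb1, the surrogate light chain of B cell precursors, with 1.97 (SE 0.30), Cd3g, of the T cell receptor complex, with 3.05 (SE 0.44) and Ighm with 1.32 (SE 0.09). Leaving out 1 library ended the calls of Olfml3 (without IG A, NG A and NG B; highest adjusted p = 0.067) and P2ry12 (in all but those without IG B and NG A; highest adjusted p = 0.093).

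Red cell genes had no common direction. Of 11, 5 rose, 1 fell and 5 did not pass, with a median of 0.25. Klf1, the factor of erythroid precursors, stood at 98.3 and 119 in IG and 407 and 603 in NG (log2 fold change 2.18, SE 0.21, adjusted p = 8.2e-05) and Hemgn had 1.62 (SE 0.13). Hba-a1, the alpha globin that also fills mature red cells, had -0.11 (adjusted p = 0.59). Hbb-bt, an adult beta globin gene, stood at 22563 and 19536 in IG and 3105 and 2027 in NG (log2 fold change -3.06, SE 0.20, adjusted p = 1.2e-05). It made up 13.6% and 11.5% of the reads of the adult beta globin genes Hbb-bt and Hbb-bs in IG and 2.64% and 1.56% in NG. These genes are near-identical copies, so the division of reads between them is uncertain. Of 12 complement genes, 9 did not pass, C4b had -0.55 (SE 0.10), C2 had 0.92 (SE 0.25), and Cfd, which is made by fat cells, stood at 27.9 and 33.6 in IG and 3232 and 3178 in NG (log2 fold change 6.66, SE 0.30, adjusted p = 2.5e-06). The call of C2 (in all but those without TG A and TG B; highest adjusted p = 0.074) was lost without 1 library.

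Cell division genes rose: all 12 replication genes, with a median of 1.41, and all 12 mitosis genes, with a median of 1.49. Fewer of the mitosis genes were called in at least 1 fit that left out 1 library. Their median ran from 1.39 to 1.53 in those 6 fits. Cdc6, which loads the replicative helicase, stood at 87.5 and 106 in IG and 349.9 and 311 in NG (log2 fold change 1.77, SE 0.17, adjusted p = 7.8e-05), and Mcm2, of that helicase, at 326 and 403 in IG and 1043 and 1032 in NG (log2 fold change 1.52, SE 0.12, adjusted p = 2.6e-05). Birc5, of the chromosomal passenger complex, had 1.71 (SE 0.13), Ccnb2 1.60 (SE 0.15) and Mki67 1.53 (SE 0.12). Of 57 clustered histone genes, 13 rose, 2 fell and 42 did not pass, with a median of 0.56. Fewer rose and fewer fell in every fit that left out 1 library, with medians from 0.32 to 0.87. Growth-related imprinted genes split, with 4 higher and 3 lower of 11 and a median of -0.22. H19, a noncoding RNA of fetal tissue, muscle and marrow, had 1.77 (SE 0.08), Igf2 0.62 (SE 0.08) and Peg3 -0.95 (SE 0.10).

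Ribosomal protein genes rose together, 78 of 82 tested with none lower, with a median of 1.24, and took 23781 and 23546 RPM in IG and 52149.9 and 53300.1 in NG. Rpl26 stood at 480.0 and 510.4 in IG and 2507 and 2388 in NG (log2 fold change 2.30, SE 0.09, adjusted p = 1.7e-06), Rpl41, the highest, had 1.76 (SE 0.09), and Rpl3l, a muscle form, 2.81 (SE 0.19). Their many processed pseudogenes can take or give reads. Rpl17-ps5 had no read in IG and 2294 and 2078 reads in NG (log2 fold change 11.21, adjusted p = 2.5e-08). Of 39 proteasome genes, 11 rose and 3 fell (more without NG A), with a median of 0.12. Fewer of them rose in every fit that left out 1 library, with medians from 0.09 to 0.16. Over the 16326 genes, 26.6% were called higher and 28.7% lower. The interferon-induced subunits Psmb9 and Psmb8 had the largest changes of the list, 2.38 (SE 0.20) and 1.99 (SE 0.17). Of 13 protein genes of the mitochondrial genome, 12 rose, with a median of 1.71, and mitochondrial transcripts took 5.39% and 4.66% of reads in IG and 17.2% and 14.2% in NG. Genes often used as references had no common direction, with Actb at 38582 and 33185 in IG and 39705 and 34679 in NG (0.05, adjusted p = 0.8), while B2m had 0.76 (SE 0.08). Of these 13 genes, 5 rose (3 without IG A or NG A and 2 without IG B), Gapdh and Polr2a fell (-0.38, SE 0.09 and -0.40, SE 0.09) and 6 did not pass, with a median of 0.05 (-0.03 when scaled by total reads). Without 1 library, Gapdh (in all but that without NG B; highest adjusted p = 0.11) and Polr2a (without IG A, IG B and NG B; highest adjusted p = 0.1) lost the call.

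The direction went with exon length. Of the 16326 genes, 16242 had an annotated exon length. In 5 nearly equal bins of these by that length, the median difference was 0.39 in the shortest, then 0.12, -0.03 and -0.10, and -0.28 in the longest. Genes called higher made up 42.5% of the shortest bin and 14.2% of the longest, and genes called lower 14.7% and 45.6%. Ribosomal protein and mitochondrial genes are short, and neuronal channels, dyneins and Hydin are long, and the part of length in their results was not tested. The 5 bins by GC content had medians from -0.03 to 0.03. By class, the 15150 protein-coding genes had a median of -0.02, with 4058 higher and 4553 lower, the 834 long noncoding genes 0.21, with 187 higher and 81 lower, and the 248 pseudogenes 0.53, with 77 and 28.

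**Figure D5:**
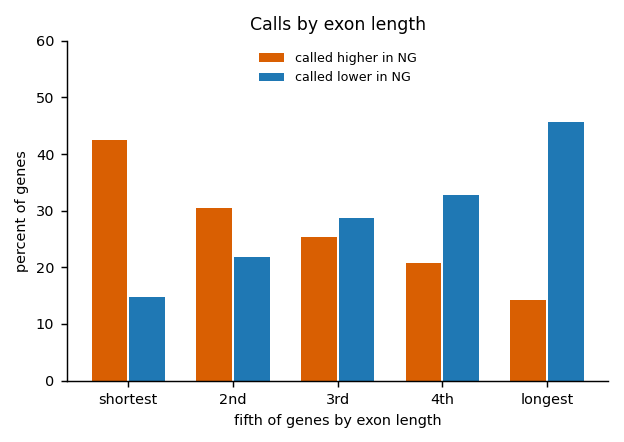
Percent of genes called higher (orange) and lower (blue) in NG within each of 5 nearly equal bins by exon length, from the shortest to the longest. The bins hold the 16242 of the 16326 genes with an annotated length. The share called higher falls from 42.5% to 14.2% and the share called lower rises from 14.7% to 45.6%.

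Some genes were read in 1 group only. Of the 16326 genes, 45 had no read in either NG library, with 45 to 294 reads in IG, and 7 had none in either IG library. All 45 are protein-coding, and their symbols include 14 cytochrome P450 genes, 5 Ugt genes of glucuronidation, 3 Sult2a sulfotransferases and 2 carboxylesterases, families of liver detoxification whose close copies can share reads. Hpd, of tyrosine breakdown, had 184 and 110 reads in IG, at least 84.6-fold higher than a floor of 3 reads over the NG group. The others include the cytokine gene Csf3, the chemokine gene Cxcl3 and the keratin genes Krt6a and Krt16, and the liver macrophage gene Clec4f. The 7 without a read in IG are Rpl17-ps5, Il22ra2, a soluble decoy receptor for IL-22, Akr1cl, Olfr224, Gm830, Gm9961 and Gm15543. Of these, Rpl17-ps5 had 2294 and 2078 reads in NG. A mean of 10 or more was reached only in NG by 479 genes and only in IG by 397. These genes, except those of the liver lists, were named after their values were seen.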

How the data were processed

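RNA of 6 libraries was sequenced, 2 in each of IG, NG and TG. Per the submitters' processing notes, the tools were Bowtie2 2.0.6 and HTSeq 0.6.1 on mm10, while for the annotation, the counting settings, the use of strand and the comparison tool the entry is: not given in the sources used here. Each table the authors deposited gives, per the file headers, a read signal for each of 2 groups, the log2 fold change with its p-value, raw and adjusted, for 35275 Ensembl genes. This deposited signal averages 2 libraries after each was divided by its size factor, and each group stands in 2 tables with different factors. The reads of each library were therefore solved from both means, which gave whole numbers for 100% of genes within 0.001 reads. The deposited columns carry no sample numbers, so A and B are names only.

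Scaling used the median of ratios across the 6 libraries. The 24511 genes with at least 1 read anywhere were tested on log2 of normalised reads plus 1 with limma 3.58.1 in R 4.3.3 (trended prior, 3 residual and 5.23 prior degrees of freedom, two-sided, Benjamini-Hochberg). All 3 groups shared the spread. RPM are reads per 1000000 reads assigned to genes. Symbols, exon lengths and positions come from GENCODE M21 on mm10, with a symbol for 34490 of 35275 identifiers. Promoter sequences come from RefSeq, GRCm38.p6. Ratios of reads have exact intervals at 95%.

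The genes and the 61 gene lists were chosen with earlier results of these data known, so no test of a list was made. Genes were named by rule: the 10 largest changes each way in RPM; the 5 largest each way in log2 fold change with at least 20 reads in every library; for each list the 3 called genes with the largest change and the highest gene; and any gene of the stress, clock and Hox lists that a sentence needs. The few exceptions within a list, and genes said to be so, were named after their values were seen. Lhfpl3, Ahsp and Flg of the lists were not matched, and Tnnc2 had no read. A few genes that these rules name are not reported here.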

Additional observations from a re-analysis of the deposited data

How the results depend on the processing

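Calls numbered 9818 over all genes tested. They numbered 9816 with trimmed-mean scaling, 9838 with upper quartile scaling, 9934 when scaled by total reads, 9713 and 9961 with pseudocounts of 0.5 and 5, 9584 with only the 16326 genes tested, 9115 with the 4 libraries of NG and IG alone, 12027 with depth rank as a term and 7331 by the authors' deposited adjusted p. With voom weights, chosen after seeing the data, they numbered 10021. In the 6 fits that each left out 1 library, calls ran from 6252 to 7566 (2886 to 3771 higher, 3303 to 3903 lower), calls among the 16326 genes from 5400 to 6746, those of at least 4-fold from 763 to 822, and genes with an interval inside 0.5 from 2133 to 2730. Each such fit has fewer samples, and the group left with 1 library is assumed to vary like the others. Of called genes among the 16326, 48.1% were higher in NG, 41.3% when scaled by total reads and 51.6% with upper quartile scaling. Of 807 genes of the lists or the named-gene rule, 545 were called, 393 of them under all 15 alternatives, and none of the 545 reversed. List medians near 0 changed sign when scaled by total reads for forebrain, matrix proteases and reference genes. They also changed sign in at least 1 other fit for these lists and for Hox groups 10 to 13, cartilage, kidney, gut and pancreas. The planned count-model alternatives were not run. The deposited columns are means of 2 libraries, and the reads solved from them, whole for 100% of genes, were tested with limma alone. No paired analysis was possible because the deposited columns carry no replicate numbers, and the depth rank term pairs libraries by their depth, not by a label.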

Other observations

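Of the genes called higher in NG by at least 4-fold, 73 were on a list and 482 on none, and of those called lower by as much, 59 and 273. Outside the lists, a few transcripts differed mainly between the libraries of a group. Lars2, the mitochondrial leucyl-tRNA synthetase gene, stood at 299.6 and 856 in IG and 201 and 1598 in NG normalised reads, with the shallower library B higher in both groups. Gm42418, an annotated noncoding transcript, stood at 696 and 4639 in IG and 373 and 11150.3 in NG, also higher in B of both groups. Gm28439 stood at 3.87 and 3.48 in IG and 479 and 21.7 in NG, high in NG A only. These genes were chosen after their values were seen, and none of the 3 has a result above that rests on it.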
